A study of Mus musculus with 12 samples.

Results

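The genes described here are 10 genes of the amino acid response driven by the transcription factor ATF4: Atf4 itself, Nupr1, Asns, Trib3, Ddit3, Ddit4, Psat1, Phgdh, Sesn2 and Slc7a11. They were chosen by symbol, as the members of 16593 named genes on the array, and have 14 of its 25697 probes. A probe counted as well measured when its detection p, which is low where a signal exceeds background, was under 0.05 on at least 4 of the 12 arrays. By that rule 13497 probes were well measured on the array as a whole, and 11 of the 14, covering 9 of the 10 genes, among the members.

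RNA came from normal colon of ApcMin mice, a strain with a mutant allele of the tumour suppressor gene Apc, which both diet groups carry. One group was fed a methyl sufficient diet and the other a methyl deficient diet, in both cases for 11 weeks, and each RNA was hybridised to an Illumina bead array. The labels name 2 sufficient animals and 4 deficient animals with 2 samples of each, which gives 4 sufficient and 8 deficient arrays, and do not give age, sex or the make-up of the diets. The comparison asks how a diet short of methyl donors changes gene expression in normal colon. All values below are normalised log2 signals, a difference is the deficient mean minus the sufficient mean, and the level of a probe is not set against that of another probe.

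ATF4 is the effector of the integrated stress response. When a cell runs short of amino acids, uncharged tRNA activates the kinase GCN2 (Eif2ak4), which phosphorylates the translation factor eIF2 and slows most protein synthesis, while the Atf4 mRNA is translated more. ATF4 protein then binds, with a C/EBP family partner, to composite sites in genes that make amino acids, import them, charge tRNAs or restrain growth. Other eIF2 kinases respond to unfolded protein, viral RNA and lack of haem, so the same genes also respond to those stresses. Methionine is both an amino acid and a methyl donor. Because ATF4 is controlled largely by translation, an mRNA level of Atf4 does not report its protein.

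The binding site ATF4 shares with C/EBP partners has the core TGATGNAA, read as TTNCATCA on the other strand. Windows of RefSeq promoters (assembly GRCm38.p6, 250 bases before to 50 bases after the start of each gene) were searched for it on both strands, and no other motif was searched. It was present in 1304 of 32851 promoters (3.97%), and in promoters of 4 of the 10 members: Nupr1, Slc7a11, Asns and Trib3. Slc7a11 held 2 copies, which 23 promoters (0.0700%) did, counting those with 2 or more. The stretches that hold the core are printed 5′ to 3′ on the strand of the gene, with the core in capitals, because these members can be set against the other members by sequence as well as by response. Nupr1 lies at chr7:126625471-126625620, Slc7a11 at chr3:50443614-50443763 and Asns at chr6:7693210-7693359, each covering the 150 bases before the start, and Trib3 at chr2:152344011-152344130, covering 70 bases before to 50 bases after the start; all are on the minus strand.
Nupr1 promoter: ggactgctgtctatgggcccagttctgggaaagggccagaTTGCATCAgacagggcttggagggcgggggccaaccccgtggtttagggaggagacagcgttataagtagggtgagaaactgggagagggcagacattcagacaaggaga
Slc7a11 promoter: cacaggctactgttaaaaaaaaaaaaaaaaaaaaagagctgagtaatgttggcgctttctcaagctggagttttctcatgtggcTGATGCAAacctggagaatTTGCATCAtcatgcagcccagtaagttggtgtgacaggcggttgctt
Asns promoter: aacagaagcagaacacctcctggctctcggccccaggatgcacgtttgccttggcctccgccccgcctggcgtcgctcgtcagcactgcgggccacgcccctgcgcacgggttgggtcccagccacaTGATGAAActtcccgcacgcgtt
Trib3 promoter: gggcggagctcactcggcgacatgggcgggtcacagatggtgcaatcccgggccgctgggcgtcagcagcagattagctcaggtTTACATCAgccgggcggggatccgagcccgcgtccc
In the Nupr1 window the core sits at position -110 to -103, counted from the start of the gene, and in Asns at -23 to -16. The copies in Slc7a11 run from -66 to -59 and from -47 to -40 on opposite strands. The core of Trib3 lies after the start, at 15 to 22. A match is a run of letters and not a proven site, and the lack of one in the other 6 members concerns these windows only.

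The arrays set limits on what can be said of the diets. By Y-linked genes and Xist, the 2 samples of both labelled sufficient animals and of labelled deficient animals 3 and 4 were of opposite sex, so those animals cannot be 1 mouse each. Their arrays were therefore joined by sex within their diet, which gave 6 sex-matched pairs: a sufficient male pair, a sufficient female pair, deficient animals 1 and 2 as labelled (both male), a rejoined deficient male pair and a deficient female pair. Within these pairs the arrays deviated together (correlations of 0.37 to 0.73 over 12317 autosomal probes), and within the 4 mixed labelled animals hardly or oppositely (-0.27 to 0.07). Nothing shows that the pairs are single mice, so p-values measure the spread between pairs. Tgm4, which the prostate makes, read 12.51 to 12.83 (log2) for the sufficient male pair and deficient animal 2, against 4.57 to 4.73 for the remaining 8 arrays. In the limma fit to the pairs 38 of 13497 probes passed an adjusted p of 0.05 (0.282%, 27 lower and 11 higher on the deficient diet). In the fit to the labelled animals 1460 did (10.8%, 744 lower and 716 higher). That fit averages a male and a female array within each mixed animal, so spread between the sexes is partly averaged out of its standard errors. The epithelial markers were measured in all samples, 6 of 6 genes, with a mean log2 signal of 12.32 to 12.36 over the sufficient pairs and 12.02 to 12.33 over the deficient pairs. Each sample is a piece of whole tissue, in which fewer cells of a type and less RNA per cell cannot be told apart.

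Most members stood lower on the deficient diet, but 0 of the 9 well measured genes passed an adjusted p of 0.05 in the limma fit to sex-matched pairs, where 0.282% of all probes passed (0.200% as lower and 0.0815% as higher). The difference was below 0 for 7 genes and above 0 for Trib3 and Ddit3, with a median of -0.38 against 0.0060 over all well measured probes. The furthest from 0 by measured value were Nupr1, Slc7a11 and Ddit4. In the fit to labelled animals 5 of 9 passed, all lower (Atf4, Nupr1, Ddit4, Phgdh and Slc7a11), where 5.51% of probes passed as lower and 5.30% as higher. At an unadjusted p of 0.05 the pairs gave 4 of 9, all lower (Atf4, Nupr1, Phgdh and Slc7a11), against 7.65% of probes as lower and 7.33% as higher (15.0% in all). Slc7a11 was well measured through its sufficient arrays alone and so had to be lower on the deficient diet. Phgdh, detected on 4 of 4 sufficient and 3 of 8 deficient arrays, also met the rule only with its sufficient arrays. These counts therefore describe the measured members and support nothing further.

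**Figure D1:**
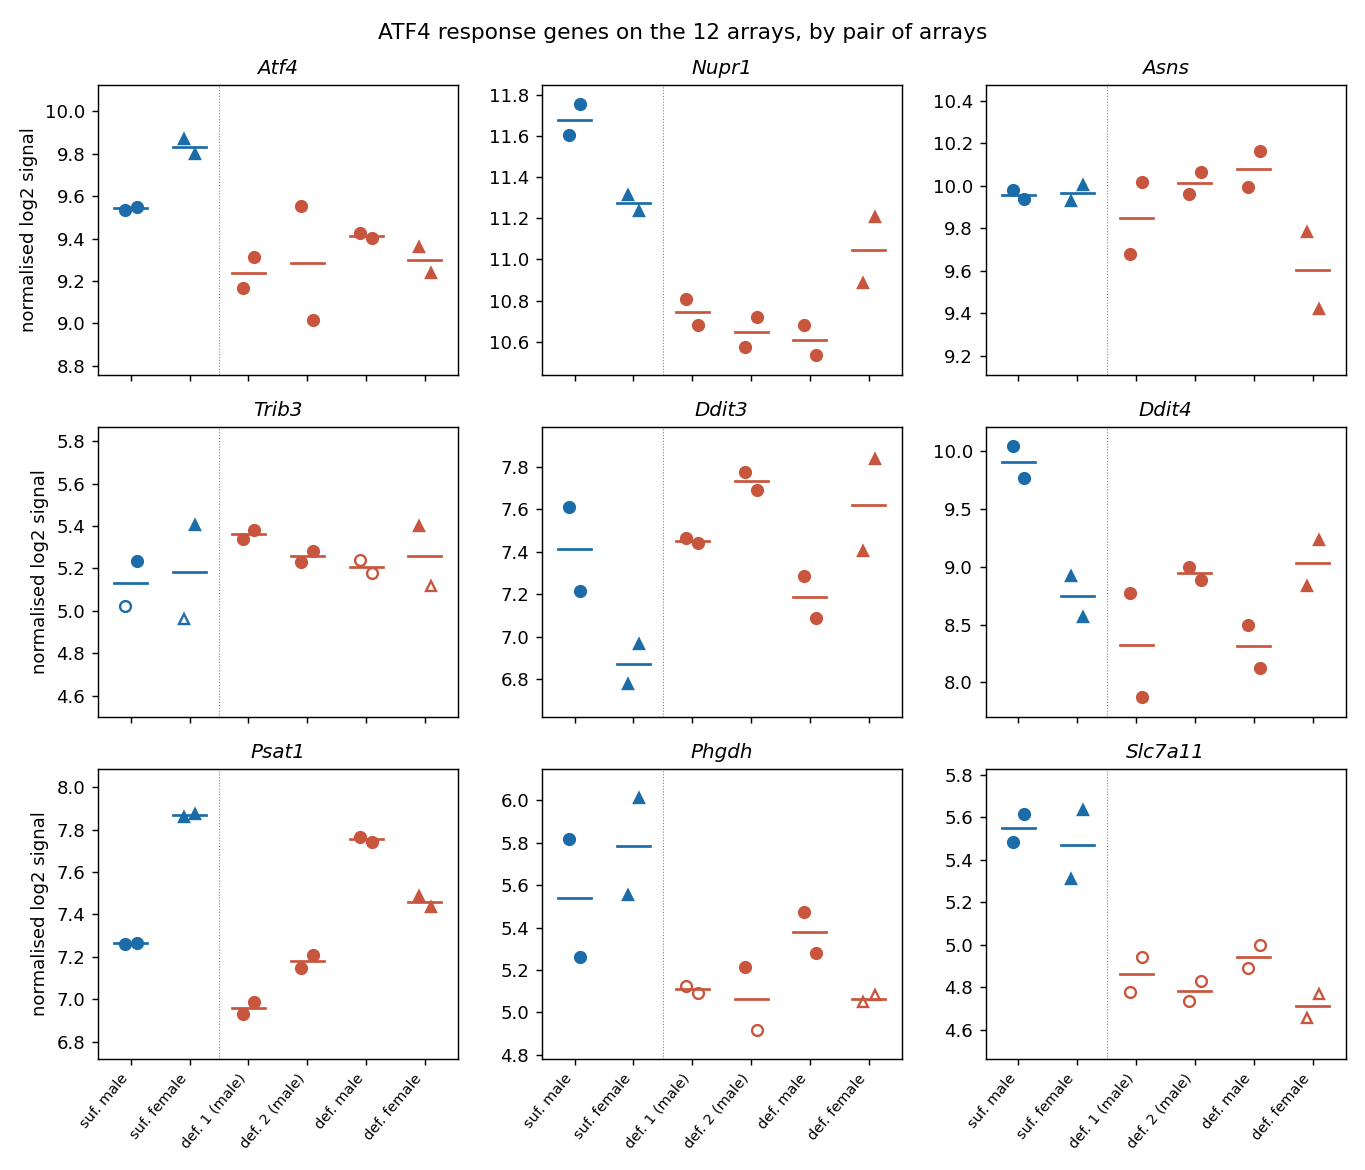
Normalised log2 signal of the 9 well measured members on each of the 12 arrays, with a panel for each gene and its own vertical scale. Sufficient arrays are blue and deficient arrays red, circles are male and triangles female, open symbols mark a detection p of 0.05 or more, and a bar is the mean of the pair; only the Nupr1 and Slc7a11 arrays are fully apart between the diets.

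Atf4, the factor itself, was lower on the deficient diet by value. Its log2 signal was 9.53 and 9.55 on the sufficient male pair and 9.87 and 9.80 on the sufficient female pair. The deficient arrays read 9.17 and 9.31 (animal 1), 9.55 and 9.01 (animal 2), 9.42 and 9.40 (rejoined male pair), and 9.36 and 9.24 (female pair). All pair means of the deficient diet lay below both sufficient means, while single arrays overlapped, since one array of deficient animal 2 reached the level of the sufficient male pair. The means were 9.69 ± 0.20 (SD, n = 2 pairs) and 9.31 ± 0.07 (SD, n = 4 pairs). The difference of -0.38 (SE 0.12, 95% interval -0.66 to -0.09) had an adjusted p of 0.233 in limma, and of 0.0270 with labelled animals. Without the sufficient female pair it was -0.23.

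Nupr1, a small stress-induced chromatin cofactor that ATF4 induces, was the member furthest below 0 in difference. The sufficient male pair read 11.61 and 11.75 and the sufficient female pair 11.31 and 11.24. On the deficient diet the values were 10.81 and 10.68 for animal 1, 10.57 and 10.72 for animal 2, 10.68 and 10.53 for the rejoined male pair, and 10.89 and 11.20 for the female pair. Every deficient array lay below every sufficient array, but the gap between the lowest sufficient array, 11.24, and the highest deficient array, 11.20, was small and lay between the female pairs. Means were 11.48 ± 0.29 (SD, n = 2 pairs) and 10.76 ± 0.20 (SD, n = 4 pairs), a difference of -0.72 (SE 0.17, 95% interval -1.12 to -0.32). It did not pass in limma with sex-matched pairs (adjusted p = 0.142) and passed with labelled animals (adjusted p = 0.00450). Without the pairs that carry Tgm4 the difference was -0.48.

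Ddit3 encodes CHOP, the pro-apoptotic C/EBP relative that ATF4 induces under prolonged stress, and it had the largest value in the other direction. The sufficient male pair read 7.61 and 7.21, the sufficient female pair 6.78 and 6.97, and the deficient arrays 7.09 to 7.84. Only the female sufficient pair lay below all deficient arrays; the male sufficient pair was inside their range. The difference was 0.36 (SE 0.20, 95% interval -0.12 to 0.83; adjusted p = 0.440 in limma, 0.0910 with labelled animals), and another Ddit3 probe gave 0.27 (SE 0.20, adjusted p = 0.547). Leaving out the sufficient female pair gave 0.09, and leaving out the male one 0.63. Trib3 encodes a pseudokinase that is induced by ATF4 and CHOP and restrains ATF4 in return. Its signal was near background: it was detected on 2 of 4 sufficient arrays, which ran from 4.96 to 5.41, and on 5 of 8 deficient arrays, which ran from 5.12 to 5.40. The diets overlapped, with a difference of 0.11 (SE 0.10, 95% interval -0.12 to 0.35) and an adjusted p of 0.620.

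Slc7a11, the cystine and glutamate exchanger xCT that supplies cysteine for glutathione, was detected on the sufficient diet only. The sufficient pairs read 5.48 and 5.61 (male) and 5.31 and 5.63 (female), and the gene was detected on all 4 of these arrays. The deficient pairs read 4.78 and 4.94, 4.74 and 4.83, 4.89 and 4.998, and 4.66 and 4.77, and it was detected on 0 of these 8 arrays. All deficient arrays were lower than all sufficient arrays, but the deficient values are only bounds, as none was well above background. The means were 5.51 ± 0.05 (SD, n = 2 pairs) and 4.82 ± 0.10 (SD, n = 4 pairs), and the measured difference was -0.69 (SE 0.11). The fit gave an adjusted p of 0.0780 in limma, short of the threshold, and 0.00585 with labelled animals. The sufficient mean was 1.20-fold above the mean detection floor of the deficient arrays, 5.24. The detection filter required sufficient signals above background, so this value is no measured minimum of a decrease. The difference passed without the rejoined deficient male pair (-0.72, adjusted p = 0.0363), and was -0.27 once low signals were set to the floor of their array and -2.32 in the authors' deposited log2 values, neither past the threshold. Because only the sufficient arrays brought Slc7a11 past the detection filter, its separation is no evidence of a difference. Full separation with the deficient diet lower, which among the other members only Nupr1 showed, occurred in 3.06% of all well measured probes; 3.27% were separate in the other direction (6.33% in all).

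Of the enzymes that make serine and asparagine 0 passed in the pair fit. Phgdh, the first step of serine synthesis, read 5.82 and 5.26 on the sufficient male pair and 5.55 and 6.01 on the female pair. The deficient arrays read 4.92 to 5.48, so that 1 sufficient male array lay inside their range. Detection was on 4 of 4 sufficient and 3 of 8 deficient arrays, so Phgdh met the detection rule only with its sufficient arrays. The difference was -0.51 (SE 0.14, 95% interval -0.83 to -0.19), with an adjusted p of 0.175 in limma and 0.0126 with labelled animals, and it was -0.38 once signals under an array's detection floor were raised to it. Psat1, the next step of the same route, varied more between pairs than between diets. The 2 arrays of a pair differed by 0.0040 to 0.064, while the pair means ran from 6.96 (deficient animal 1) to 7.87 (sufficient female pair). The rejoined deficient male pair read 7.76 and 7.74, above the 7.26 and 7.27 of the sufficient male pair. Its difference was -0.23 (SE 0.25, 95% interval -0.82 to 0.36; adjusted p = 0.695 in limma), and it was -0.53 without the sufficient male pair and 0.07 without the sufficient female pair. Asns, which makes asparagine and is the classical amino acid response target, was nearly level: 9.93 to 10.002 on the sufficient arrays and 9.42 to 10.16 on the deficient arrays, where only the deficient female pair lay below the sufficient range on both arrays. The difference was -0.08 (SE 0.15, 95% interval -0.43 to 0.28; adjusted p = 0.839), and -0.14 (SE 0.13, adjusted p = 0.653) by another probe. The remaining Asns probe was detected on 0 of 12 arrays.

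Ddit4 (REDD1) and Sesn2 encode stress-induced inhibitors of the growth kinase mTORC1. The sufficient male pair read 10.04 and 9.77 for Ddit4, above all other arrays. The sufficient female pair read 8.92 and 8.57, within the deficient values of 7.87 to 9.23. The diets therefore overlapped, and the difference of -0.67 (SE 0.35, 95% interval -1.50 to 0.15; adjusted p = 0.407 in limma, 0.0431 with labelled animals) was -0.09 without the sufficient male pair and -1.25 without the sufficient female pair. The sufficient male pair carries Tgm4, and without both pairs that do the difference was -0.19. Neither Sesn2 probe was detected on any of the 12 arrays (smallest detection p 0.0539), so the arrays gave no measurement of this gene. Slc7a11, detected on 4 arrays, met the rule of detection with none to spare, and no member had a detection count from 1 to 3.

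**Figure D2:**
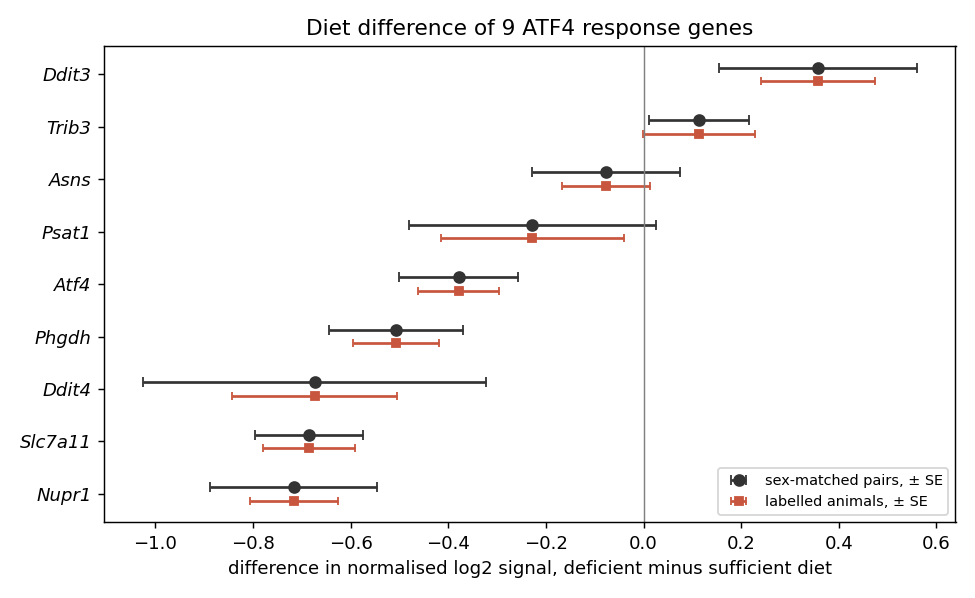
Difference in normalised log2 signal (deficient minus sufficient) for the 9 members, from the fit to 6 sex-matched pairs (black) and from the fit to 6 labelled animals (red), with bars of 1 SE. The differences are the same in both fits and the standard errors of Nupr1 and Ddit4 are larger with sex-matched pairs (0.17 against 0.09, and 0.35 against 0.17).

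The diet difference was also taken within each sex. Nupr1 was lower by value in males (-1.01, 1 sufficient and 3 deficient pairs) and less so in females (-0.23, 1 pair each). Ddit4 was lower in males (-1.38) and higher in females (0.29). Ddit3 differed by 0.05 in males and 0.75 in females (-0.02 and 0.51 by another probe), and Atf4 by -0.23 and -0.53. Trib3 was at 0.15 in males and 0.07 in females. Phgdh was at -0.36 and -0.72, Psat1 at 0.03 and -0.41, and Asns at 0.02 and -0.36 (-0.10 and -0.32 by another probe). Slc7a11 was at -0.69 and -0.76, values that are set by background on all deficient arrays and so do not compare the sexes. The difference between the sexes was tested as an interaction over all probes: 0 of 13497 (0%) passed an adjusted p of 0.05, and 754 (5.59%) had an unadjusted p under 0.05. For Nupr1 the interaction had an unadjusted p of 0.0192 and for Ddit4 of 0.0154, each with an adjusted p of 0.869 in limma. The female values rest on 1 pair per diet, and the sufficient male pair carries Tgm4.

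**Figure D3:**
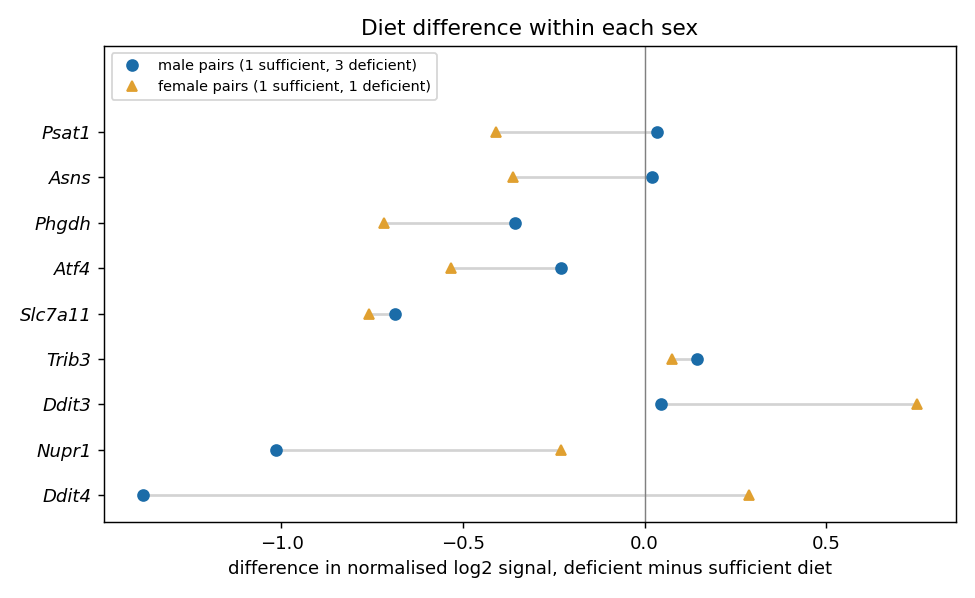
Difference in normalised log2 signal (deficient minus sufficient) of each member within male pairs (blue circles; 1 sufficient, 3 deficient) and within female pairs (yellow triangles; 1 of each). Ddit4 (-1.38 in males and 0.29 in females), Asns (0.02 and -0.36) and Psat1 (0.03 and -0.41) have values on both sides of 0. The Slc7a11 points, and the female point of Phgdh, rest on deficient signals at background.

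Related gene lists put the members in context. Over 91 measured genes of 12 lists, 1 passed the threshold in the pair fit, where 0.282% of all probes passed. The median difference was -0.15, with 68 values below 0 and 23 above. Over all 13497 well measured probes 6585 values were below 0 and 6912 above. With labelled animals 13 passed, 12 of them lower, in a fit where 10.8% of all probes passed and 5.51% did so as lower. These lists were chosen with earlier results of the data known, and they are described by counts and medians alone.

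Upstream of ATF4, the kinases and factors of the integrated stress response had a median of -0.12 over 10 genes, 6 below 0 and 4 above. Of 15 symbols listed, 11 were on the array. GCN2 (Eif2ak4), the kinase that amino acid shortage activates, was not among the 10 well measured genes, so its level is not described here. Ppp1r15a (GADD34), the stress-induced subunit that dephosphorylates eIF2, was at -0.70 (SE 0.18), and its constitutive counterpart Ppp1r15b was at 0.46 (SE 0.18). Neither passed in limma (adjusted p = 0.162 and 0.307), though the arrays of the diets were fully apart for both, in opposite directions. Of all well measured probes 3.06% were fully apart as lower and 3.27% as higher. Eif2b1, a subunit of the eIF2 exchange factor, was at -0.28 (adjusted p = 0.340).

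Among partners and relatives of ATF4 the median of 9 genes was -0.21. Nfil3, a bZIP repressor of the immune system and the clock, was at -1.48 (SE 0.33), from 7.51 ± 0.85 (SD, n = 2 pairs) to 6.03 ± 0.30 (SD, n = 4 pairs), with an adjusted p of 0.124 in limma and 0.00308 with labelled animals. Cebpb, a partner of ATF4, was at -0.37 and Jdp2 at 0.40 (adjusted p = 0.347 and 0.376).

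Of the other ATF4 targets, 0 of the 7 measured genes of amino acid and folate-linked synthesis passed (median -0.15), and none of the 8 transporters (median -0.04) or 10 tRNA charging genes (median -0.13) did. Cth, which makes cysteine, was at -0.63 and Aldh1l2, a mitochondrial folate enzyme, at 0.71 (adjusted p = 0.427 and 0.527), with Shmt2 at -0.21. Slc7a5, the leucine carrier, was at -0.40, Slc6a9 at -0.19, and Slc7a6 at 0.25 with detection on 1 of 4 sufficient arrays. Mars1, Lars and Tars, which charge the tRNAs of methionine, leucine and threonine, were at -0.55, -0.25 and -0.22, and 9 of the 10 genes of this list were below 0. The 11 stress and autophagy targets had a median of -0.15, with Vegfa at -0.42, Vldlr at -0.29 and Trib2 at 0.30.

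The other arms of the unfolded protein response, run by ATF6 and XBP1, were below 0 in 11 of 12 genes (median -0.23), again with 0 past the threshold. Edem1, which targets misfolded proteins for degradation, was at -0.89 (SE 0.13, adjusted p = 0.0645), with detection on 4 of 8 deficient arrays. Calr, the chaperone calreticulin, was at -0.71 (adjusted p = 0.0927) and Xbp1 at -0.44 (adjusted p = 0.214). Edem1, Calr and Xbp1, named for the smallest p of the list, had fully separate arrays with the deficient diet lower. Of all well measured probes 3.06% did.

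Lists of other inputs to single members had medians below 0, and in the p53 and glucocorticoid lists genes lay on both sides of it. All 5 NRF2 targets, which share with Slc7a11 a response to oxidants, were below 0 (median -0.19; Txnrd1 -0.39, Srxn1 -0.19, Gclm -0.17). The hypoxia targets, which share one with Ddit4, were below 0 in 6 of 6 (median -0.46). Egln3, a prolyl hydroxylase that hypoxia induces, fell from 11.39 ± 0.02 (SD, n = 2 pairs) to 10.05 ± 0.25 (SD, n = 4 pairs), a difference of -1.34 (SE 0.17, adjusted p = 0.0322 in limma), and is the gene of all the lists that passed. Without the sufficient female pair, deficient animal 1, the deficient female pair or the Tgm4 pairs, 0 genes of the lists passed. Car9 was at -0.68 and Pdk1 at -0.50. Of the p53 targets Cdkn1a, the cell cycle inhibitor p21, was at -0.79 (adjusted p = 0.138), Trp53inp1 at -0.53 and Zmat3 at 0.17, with a list median of -0.11 over 7 genes, 4 below 0 and 3 above. The 5 glucocorticoid targets, 3 below 0 and 2 above, had a median of -0.11 (Sgk1 -0.65, Fkbp5 -0.42, Tsc22d3 0.13). In the methionine cycle the 4 measured genes were below 0 (median -0.36), with Ahcy, which clears S-adenosylhomocysteine, at -0.58 (adjusted p = 0.0927) and Mat2b at -0.13.

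**Figure D4:**
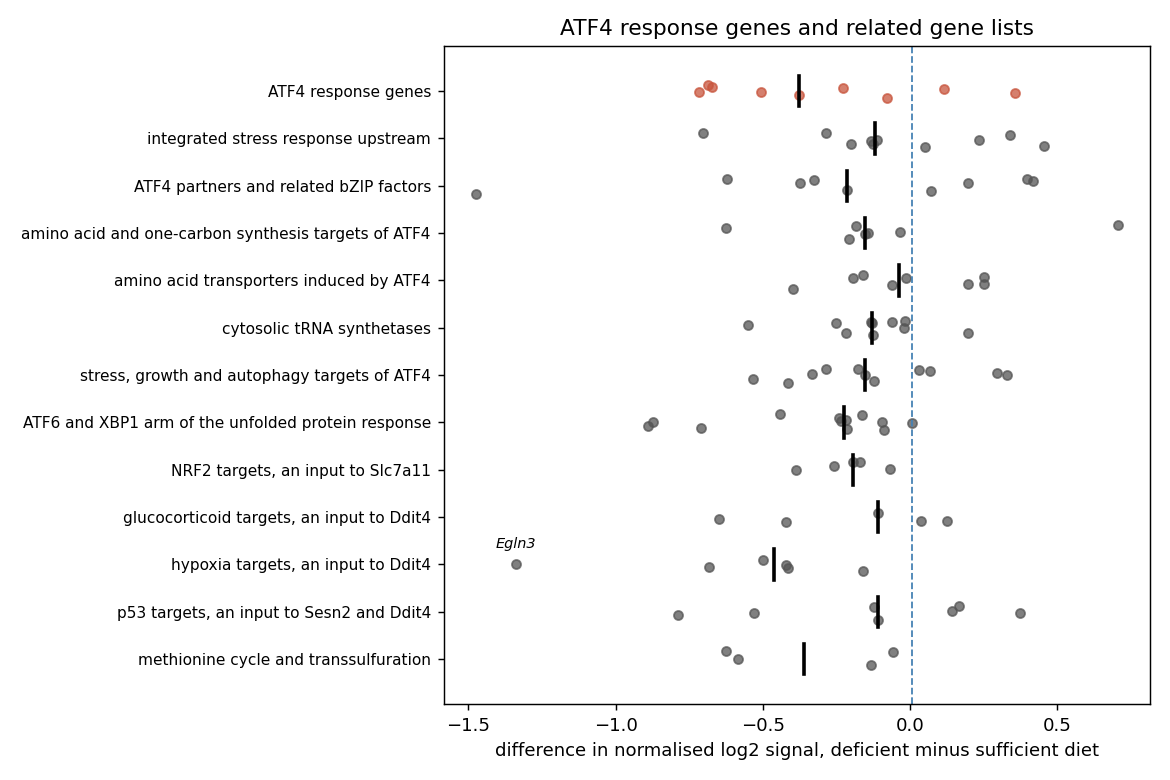
Difference in normalised log2 signal (deficient minus sufficient) of the members (red) and of the measured genes of 12 related lists (grey), with a point for each gene, a black bar at the median of each list and a dashed line at the median of all well measured probes (0.0060). The points spread widely around the medians; Egln3 is labelled as the gene past the threshold.

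Markers of other cells are given by their mean log2 signal in the pairs. In the pair fit 2 of 5 measured plasma and B cell markers passed the threshold. No marker of another cell type passed, in a fit where 0.282% of all probes did. The plasma and B cell markers stood at 7.27 and 7.53 in the sufficient pairs and at 5.55 to 6.31 in the deficient pairs. Of 7 genes 5 were well measured, with Mzb1 and Pou2af1 past the threshold as lower, and Jchain and Ms4a1 were not well measured. The myeloid markers stood at 8.29 and 8.75 against 7.37 to 7.95 (5 of 5 genes measured, median difference -0.74, 4 below 0). Single myeloid markers differed: S100a8 was at -2.34, S100a9 at -1.73, Cd14 at -0.74, Fcgr3 at -0.11 and Lyz2 at 0.007. S100a8 was detected on 4 of 8 deficient arrays and S100a9 on 2 of 8. The T cell markers stood at 5.99 and 6.19 against 5.33 to 5.91 (4 of 4, median difference -0.42). Enteric neuron and glia markers were higher by value, at 6.84 and 6.996 against 7.24 to 7.99 (4 of 5 measured, median difference 0.80, S100b not well measured). The fibroblast markers stood at 9.02 and 9.24 against 9.16 to 9.78 (6 of 6, median difference 0.42). The median difference was 0.20 for smooth muscle, -0.01 for endothelium, -0.16 for goblet cells and -0.36 for adipocytes (2 genes measured). The part of these cells in the differences of the members was not tested.

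The members with the largest spread over the 12 arrays were set against all named probes by the root mean square distance between log2 profiles, each centred on its own mean. Nearest to Ddit4 were Krt15 (0.248), Ier3 (0.249) and Il34 (0.291), on a spread (SD) of 0.61 for Ddit4. Nearest to Nupr1 (SD 0.41) were Abo (0.140), Ctse (0.175) and Aspscr1 (0.176). Nearest to Slc7a11 (SD 0.36) were Tgm5 (0.111), Vmp1 (0.118) and Cd14 (0.129). Slc7a11 was not detected on the deficient arrays, so its profile is largely a step from detected signal to background. Diet differences of these 3 probes were -0.61, -0.77 and -0.74, and Tgm5 read only 4.79 to 5.03 on the deficient arrays. No member was among these nearest probes. Across the array, the measured genes with the ATF4 core in their promoter, members left out, had a median difference of 0.013 (234 genes, 48.7% below 0), and those without it 0.023 (7471 genes, 45.6% below 0). In the pair fit 0 and 19 of these genes passed, where 0.282% of all probes did. With labelled animals 8.55% of genes with the core passed as lower and 4.70% as higher, against 4.94% and 5.70% without it; the difference between these shares was not tested. A promoter was found for 7714 of 9509 measured named genes (81.1%).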

How the data were processed

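Each sample was hybridised to an Illumina mouse bead array. The authors deposited, for each array and probe, an unnormalized signal intensity and a p-value for detection, as the file headers name them; the software that made them is not given in the sources used here. A value table on a log2 scale was also deposited, with a median of 0 per probe; its normalization is unknown, so it served as an alternative. It matched the signals of its own arrays (correlation 0.957 to 0.979 over 9314 probes, at most 0.737 to any other array).

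Intensities were background-corrected, quantile-normalized and taken to log2 with neqc (limma 3.58.1, R 4.3.3, offset 16, negative controls inferred from detection p). Median signals were 59.4 to 71.5 and 12609 to 13241 probes were detected per array; the number of arrays limits precision. Probes were named from the platform annotation (23978 with 1 symbol, 1719 unnamed, 0 with several; 23962 found in RefSeq).

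Means of the 2 arrays of each pair were fitted with limma (lmFit, eBayes; two-sided, Benjamini-Hochberg over 13497 probes, threshold 0.05; 4 residual and 3.41 prior degrees of freedom). An exact permutation test over 15 splits cannot go below p = 0.0667 and was not used. Animals 1 and 3 share numbers across diets, and the deviations of labelled animals from their diet mean did not correlate (-0.063 and -0.046). The deviations of the 2 sufficient animals mirror each other, and both animals mix the sexes. These values therefore cannot tell whether the numbers pair samples, and the main fit did not pair them. A gene is given by its brightest well measured probe. The genes named are the members, the 3 of each list with the smallest p and any past the threshold, the 3 nearest profiles for the 3 most variable members, and sex and Tgm4 checks. The myeloid markers, and cell type markers named as past the threshold or not well measured, fall outside this rule. They were chosen after their values were seen. Members and lists were chosen with earlier results of these data known. The model was tested on simulated data. Alternatives covered units, block, sex, background, offset, deposited log2 values, detection floor, filter, variance trend and pairs left out.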

Additional observations from a re-analysis of the deposited data

How the results depend on the processing

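The counts of members past the threshold, and of probes and related genes, depended most on how arrays were joined. Against 38 probes, 0 members and 1 related gene with sex-matched pairs, the labelled animals gave 1460, 5 and 13, and the animal number as a replicate block on top gave 638, 2 and 9. The random block over 12 arrays gave 522, 2 and 8, and the robust variance trend gave 54, 1 and 2. Sex as a covariate gave 7 probes, 0 members and 0 related genes, the deposited log2 values 11, 0 and 0, and no filter 1, 0 and 0. Without the pairs that carry Tgm4 the counts in limma were 0, 0 and 0 (at an unadjusted p under 0.05: 1712, 4 and 15), and for male pairs alone 0, 0 and 0 (982, 3 and 7). Leaving out a pair gave 0 to 351 probes, 0 to 1 members and 0 to 3 related genes. The main count of 0 members compares with 4 at an unadjusted p under 0.05. No background correction, an offset of 50, the detection floor and detection on all 12 arrays kept the counts past the adjusted threshold within 1.5 times, while at an unadjusted p under 0.05 detection on all 12 arrays left 2 of 6 members.

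Of 179 member alternatives, 155 kept both their direction and their side of the threshold, and 11 passed it with the direction unchanged. In female pairs alone, where no test is possible, 3 kept their direction near the main value and 5 kept it but moved in value. The other 5 alternatives changed sign. Asns was at 0.018 without the deficient female pair and 0.021 in males alone. Psat1 was at 0.074 without the sufficient female pair and 0.034 in males alone, and Ddit4 at 0.29 in females alone. The cause was not tested. With a pair left out Asns ran from -0.14 to 0.018 and Psat1 from -0.53 to 0.074. Slc7a11 passed without the rejoined deficient male pair (-0.72, adjusted p = 0.0363), with the robust trend (0.0429), with the random block (0.00397) and with the replicate block (0.0482); its value was -0.27 with signals raised to the floor and -2.32 in the deposited values. Nupr1 passed with the replicate block (0.0335) and the random block (0.0138). Trib3, Phgdh and Slc7a11 lie near background, so their log2 differences are damped by the offset. With 2 sufficient pairs, leaving one out leaves a lone sample that is assumed to vary like the deficient pairs.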
